A study of Mus musculus with 12 samples.

Results

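The 8 genes *Pigr*, *Il15*, *Il18*, *Tnfsf10*, *Ccl25*, *Ccl28*, *Cxcl16* and *Cx3cl1*, which encode the epithelial IgA receptor and signals that gut epithelium sends to immune cells, were followed in sorted small-intestinal epithelial cells of mice after a sham operation or an experimental stroke. They were chosen by name as the rows of the deposited gene table with these symbols, and all 8 were found among its 15855 genes. Cells positive for EpCAM, a surface protein of epithelial cells, and negative for the dead-cell dye 7AAD were collected from whole small intestines of C57BL6/J mice 24 h after surgery, and their RNA was sequenced. Surgery was either permanent middle cerebral artery occlusion (pMCAO), which closes a main artery of the brain for good and models ischaemic stroke, or a sham operation; 5 pMCAO and 7 sham samples were available, each labelled as a biological replicate, and the age of the mice is not given in the labels. The comparison asked whether a stroke changes gene expression in the small-intestinal epithelium 1 day later.

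Epithelial cells carry IgA, the main antibody of the gut lumen, from their basal to their luminal side with the polymeric immunoglobulin receptor encoded by *Pigr*. They also make cytokines that act on the lymphocytes lying between them, chiefly IL-15, and IL-18, which is stored as an inactive precursor and cut by caspase-1 within inflammasomes. Chemokines made by the epithelium, such as CCL25 in the small intestine, draw lymphocytes and antibody-secreting cells to the mucosa, whereas CXCL16 and CX3CL1 are made as membrane-bound proteins and released by proteases of the ADAM family.

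Total counts per sample ranged from 7418730 to 31925579. The libraries were cut into 4 blocks by the number in their titles (58 to 61, 62 to 65, 66 to 68, and 72). The labels do not mark these cuts, which were chosen with earlier results of these data known. Libraries of the first block (58 to 61, 3 sham and 1 pMCAO, called early here) stood apart from the later ones (62 to 72). Early libraries had 13386 to 14712 genes with a count against 15343 to 15766 in later ones, and 34.8% to 54.5% of their counts came from the mitochondrial ribosomal RNA genes against 14.6% to 35.2%. The labels do not say what the number stands for. Markers of epithelium were present in every sample, with 8 of 8 listed markers above 0 throughout and summed levels of 5485 to 12757 CPM (read counts scaled to a common library size), whereas of 10 fibroblast and endothelial markers only *Pecam1* was in the table. T cell and intraepithelial lymphocyte markers were detected at 35.5 to 154 summed CPM in early and 125 to 710 in later libraries, with 13 of 14 listed genes in the table and *Cd3e*, a defining chain of the T cell receptor complex, at 0 in 2 samples. B and plasma cell markers, 8 of 9 in the table, summed to 14.5 to 112 CPM. None of 13 marker lists passed a test of its summed level between sham and pMCAO (exact permutation test over 792 arrangements, two-sided, every adjusted p = 0.995). With blocks, the fitted level in pMCAO was higher for 51.26% of all tested genes, and the marker lists went both ways. It was higher for 11 of 12 tested T cell and intraepithelial lymphocyte markers and 6 of 7 goblet cell markers. The same held for 8 of 8 enterocyte markers and 8 of 8 B and plasma cell markers. Of these 6, 4, 3 and 0, respectively, had an unadjusted p under 0.05, against 12.7% of all genes in either direction, and none was called. In contrast, 0 of 6 tuft cell, 1 of 8 enteroendocrine and 4 of 8 epithelial markers had a higher fitted level. In the remaining lists it was 3 of 4 Paneth cell, 4 of 6 stem cell, 5 of 9 myeloid, 1 of 1 stromal, 3 of 4 proximal and 1 of 3 ileal markers. The part of these cell types in the values below was not tested. In bulk RNA, fewer cells of a type and less RNA per cell cannot be told apart.

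Across the 8 genes, 7 had a higher fitted level in pMCAO than in sham and only *Il15* had a lower one, but none passed the study's criteria, an FDR no higher than 0.05 together with a log2 fold change of 1 or more in size. The test was limma-voom across the 14462 genes that passed a filter on low counts, which all 8 genes passed, with p-values adjusted over all of them by the Benjamini-Hochberg method. In the fit on group alone 0 of 8 genes and 0% of all tested genes were called, with a smallest adjusted p over all genes of 0.0557. With the library-number blocks as a covariate 0 of 8 were called, against 0.325% of all genes. *Ccl28*, *Cx3cl1* and *Tnfsf10* had an unadjusted p under 0.05 on group alone (3 of 8 genes, against 8.43% of all genes), and *Cxcl16* joined them with blocks (4 of 8, against 12.7% of all genes). Sham and pMCAO samples overlapped for all 8 genes, and 0.505% of all tested genes had groups that did not overlap. The median log2 fold change of the 8 genes was 0.53 on group alone and 0.45 with blocks, beside 0.06 and 0.01 over all genes tested. Since the 8 genes were picked with earlier results of these data known, these counts describe them and are not a test of the group.

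**Figure D1:**
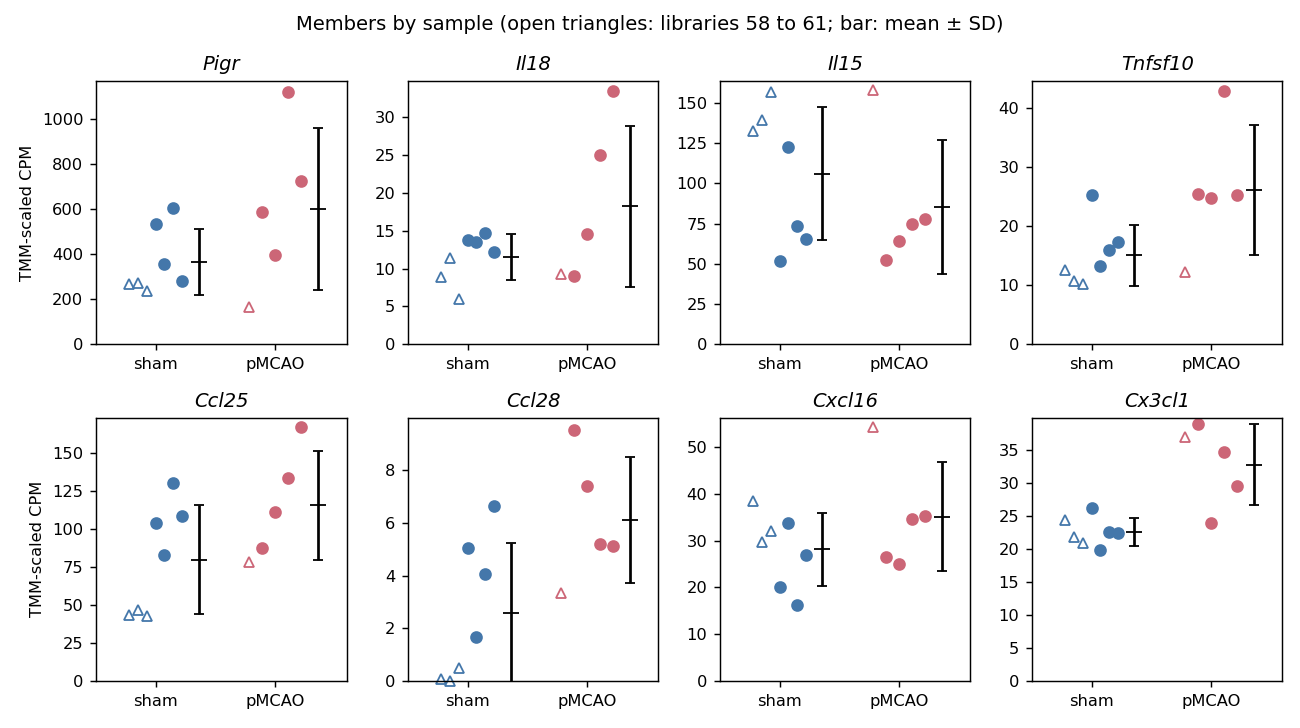
Level of each of the 8 genes in TMM-scaled CPM (vertical axis, from 0) in the 7 sham (blue) and 5 pMCAO (red) samples, with open triangles for libraries 58 to 61 and bars for the mean ± SD. Groups overlap in every panel, *Cx3cl1* has the tightest sham group (19.9 to 26.2 CPM), and the 3 open sham triangles lie lowest of all sham samples for *Ccl25* and *Ccl28* and highest for *Il15*.

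**Figure D2:**
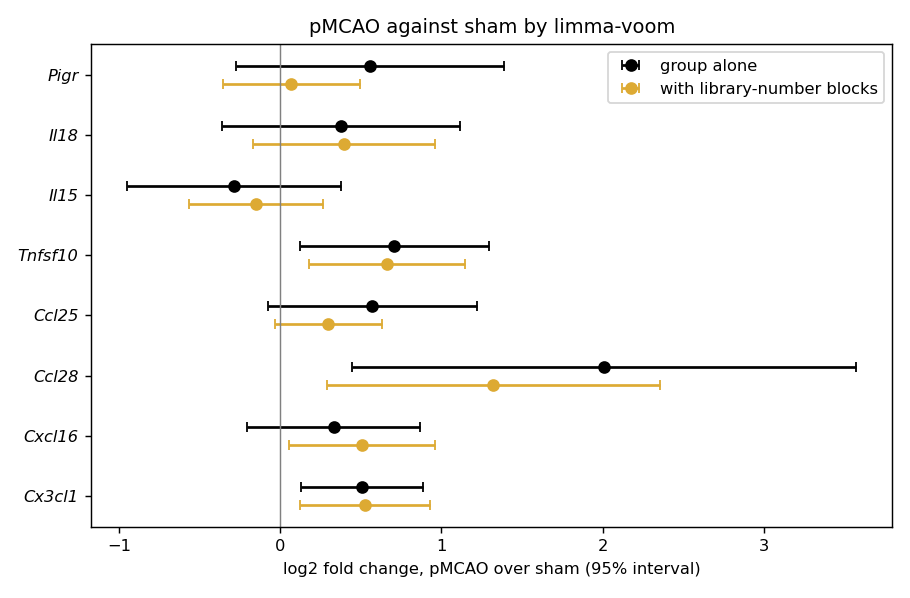
Log2 fold change of pMCAO over sham (horizontal axis) with its 95% interval for each gene, from limma-voom on group alone (black) and with library-number blocks (yellow). *Cx3cl1* keeps the same value in both fits (0.51 and 0.53), whereas *Pigr* moves from 0.56 to 0.07 and *Ccl28*, with the widest intervals, from 2.01 to 1.32.

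Per length of merged exons the IgA receptor was the most abundant of the 8 transcripts in sham samples, at 90.6 ± 36.4 CPM per kb (SD, n = 7). *Il15* followed at 46.9 ± 18.3 CPM per kb, with sample ranges of 58.5 to 150 for *Pigr* and 22.9 to 69.3 for *Il15* that overlapped. *Il18* (11.2 ± 2.97), *Ccl25* (10.7 ± 4.82) and *Cxcl16* (9.32 ± 2.59) could not be ordered beyond the spread between samples. Merged exons join all annotated transcripts of a gene, 7.445 kb for *Ccl25* and 1.031 kb for *Il18*. Where the transcripts present are shorter than that, the level per kb is too low, so the order of the genes is uncertain. *Cx3cl1* lay at 5.76 ± 0.54, overlapping the lower end of *Il18*, *Ccl25* and *Cxcl16*, and *Tnfsf10*, at 2.86 ± 0.99, stayed below the *Cx3cl1* range with a highest sham sample of 4.81. *Ccl28* was the lowest at 0.53 ± 0.55, with a highest sham sample of 1.37 that lay under the lowest *Tnfsf10* sample of 1.92. The order of the means was the same in pMCAO, with *Pigr* at 149 ± 89.6 (SD, n = 5) and *Ccl28* at 1.26 ± 0.49 CPM per kb at the ends, and with overlapping ranges of *Il18*, at 17.7 ± 10.3, and *Ccl25*, at 15.5 ± 4.83.

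**Figure D3:**
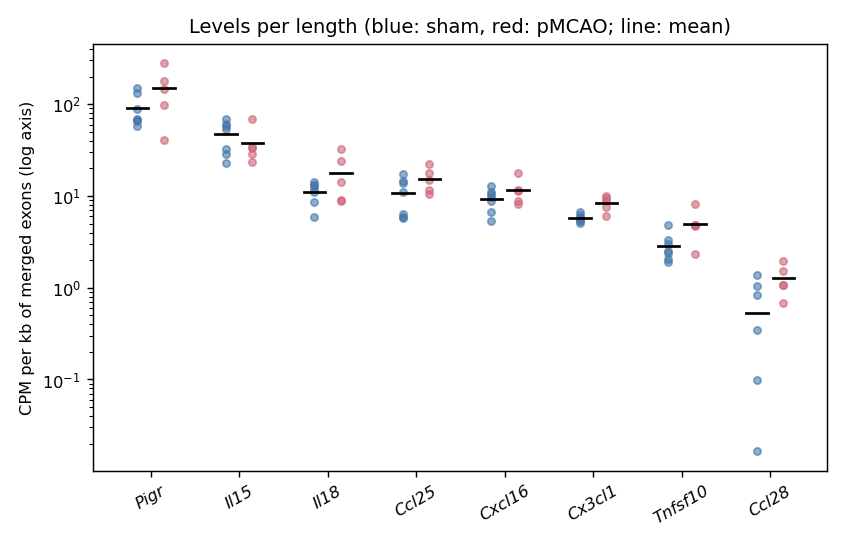
Levels per length, in CPM per kb of merged exons on a log axis, for each gene in sham (blue) and pMCAO (red) samples, with a black line for the group mean; the 1 sham sample without a *Ccl28* count cannot be drawn. The genes run from *Pigr*, at 90.6 in sham, to *Ccl28*, at 0.53, and *Il18*, *Ccl25* and *Cxcl16* overlap on this scale, which depends on the annotated exon length.

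*Pigr* (ENSMUSG00000026417, GRCm38 chr1:130826684-130852249, plus strand, 13 merged exons) was not called in either direction, and its spread between samples was wide. In the 7 sham samples it ranged from 235 over a median of 280 to 604 TMM-scaled CPM. The 5 pMCAO samples had 166, 587, 396, 1123 and 727 CPM. The lowest and the highest of all 12 values were therefore both pMCAO samples, the lowest being the single early pMCAO library. Group means were 365 ± 146 in sham and 600 ± 360 in pMCAO. The fitted log2 fold change was 0.56 ± 0.39 (SE, adjusted p = 0.698) on group alone and 0.07 ± 0.20 (adjusted p = 0.926) with blocks. Within the blocks 58 to 61, 62 to 65 and 66 to 68, in that order throughout, the difference of pMCAO minus sham on the log2 scale was −0.64, 0.14 and 0.58. *Pigr* thus had no common direction across blocks. A list of 16 receptors, ligands and binding partners of the 8 genes also held the TNF receptor gene *Tnfrsf1a*, although TNF is not among the 8. Of the 16 listed genes, 12 were in the table and tested. Of these, 9 had a higher fitted level in pMCAO on group alone and 7 with blocks, and none was called. *Tnfrsf11b*, a decoy receptor of TRAIL chosen after its values were seen, was the only one with an unadjusted p under 0.05, with blocks (log2 fold change −1.45 ± 0.49, adjusted p = 0.214).

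The 250 bases before the RefSeq start of *Pigr* (GRCm38.p6, chr1:130826434-130826683, plus strand, 5′ to 3′) are shown because they hold an E-box, CACGTG, the kind of element bound by upstream stimulatory factors, in capitals.
Pigr promoter: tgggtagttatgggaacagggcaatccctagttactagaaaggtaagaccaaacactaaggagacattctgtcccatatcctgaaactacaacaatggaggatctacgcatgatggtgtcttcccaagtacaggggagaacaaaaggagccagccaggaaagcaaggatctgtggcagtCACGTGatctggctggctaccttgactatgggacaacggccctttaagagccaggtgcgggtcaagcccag
The E-box starts 71 bases before the start, and 6.02% of the 32851 promoters of this length in the RefSeq table hold one on either strand. *Usf1*, which encodes such a factor and was picked here for the motif, had 7.01 ± 2.33 CPM in sham and 6.55 ± 2.43 in pMCAO (log2 fold change 0.06 ± 0.29, adjusted p = 0.966). The RefSeq table held 7 promoters for 6 of the 8 genes, with none for *Il15* and *Cxcl16*. None of the 7 held the interferon regulatory factor motif GAAANNGAA (7.13% of all promoters), the STAT motif TTCNNNGAA (7.02%) or the NF-κB-like motif GGGNNTTCC (4.98%), searched on both strands; these counts say only that the letters were not in these windows.

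The IgA heavy chain and the joining chain, the cargo of this receptor and products of plasma cells rather than of epithelium, were measured at low levels. *Igha* had 24.8 ± 14.1 CPM in sham and 24.5 ± 16.8 in pMCAO (fitted log2 fold change 0.36 ± 0.48, adjusted p = 0.856). *Jchain*, picked for its role after its values were seen, had 8.46 ± 4.43 and 5.86 ± 3.43 (fitted log2 fold change 0.08 ± 0.45, adjusted p = 0.971). For both the fitted sign was opposite to that of the means. Relative to *Epcam* in the same sample, the log2 ratio of *Pigr* was −2.22 ± 0.95 in sham and −1.21 ± 1.62 in pMCAO, a difference of 1.01 (exact permutation p = 0.197, adjusted p over 4 ratios = 0.263, within blocks adjusted p = 0.704). *Epcam* itself had 1674 ± 548 CPM in sham and 1267 ± 710 in pMCAO. By limma-voom it was higher in early than in later libraries by 1.01 on the log2 scale (adjusted p = 0.000653). The ratio ran from −3.93 to −2.99 in early and from −2.27 to 0.35 in later libraries. The part of *Epcam* in the difference was not tested.

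*Il15* (ENSMUSG00000031712, chr8:82331632-82403222, minus strand, 11 merged exons), which sustains intraepithelial lymphocytes, was the only gene of the 8 with a lower fitted level in pMCAO, and that difference lay within its error. Sham samples ranged from 51.8 over a median of 122 to 157 CPM, and pMCAO samples had 158, 52.6, 64.2, 74.5 and 77.9. The highest value of each group came from an early library. Means were 106 ± 41.4 and 85.4 ± 41.7 CPM, with a log2 fold change of −0.29 ± 0.31 (adjusted p = 0.818) and, with blocks, −0.15 ± 0.20 (adjusted p = 0.798). Block differences of 0.15, −0.45 and 0.05 had no common sign. Its presenting receptor *Il15ra*, named here after its values were seen, had 12.8 ± 10.2 CPM in sham and 12.01 ± 7.53 in pMCAO (fitted log2 fold change 0.26 ± 0.47). The shared receptor chain *Il2rg*, whose exons overlap *Gm20489* on the same strand, had 1.81 ± 2.65 and 1.39 ± 1.09 CPM. Its fitted log2 fold change had the opposite sign to the means, at 1.22 ± 0.93 (adjusted p = 0.723). By edgeR and DESeq2 it was −0.35 and −0.385, so *Il2rg* had no settled direction.

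*Il18* (ENSMUSG00000039217, chr9:50554827-50581840, plus strand, 8 merged exons) was highest in a pair of pMCAO samples and not separated between groups. Sham samples ranged from 6.03 over a median of 12.2 to 14.7 CPM. The pMCAO samples had 9.31, 9.05, 14.5, 24.96 and 33.4. Replicates 4 and 5, both in the block of libraries 66 to 68, exceeded every sham sample, and the other 3 pMCAO samples lay inside the sham range. The log2 fold change was 0.38 ± 0.35 (adjusted p = 0.777) and 0.40 ± 0.27 with blocks (adjusted p = 0.576), and the block differences were 0.13, −0.25 and 0.97. With sham replicate 6 left out, which leaves that block without a sham sample, the fold change with blocks was −0.16 (adjusted p = 0.879). The log2 ratio of *Il18* to *Il15* was −3.14 ± 0.98 in sham and −2.31 ± 1.11 in pMCAO (exact permutation p = 0.197, adjusted p = 0.263). The decoy receptor *Il18bp*, which neutralises IL-18 and overlaps *Numa1* on the opposite strand, had 17.4 ± 2.44 and 16.2 ± 3.02 CPM in sham and pMCAO (adjusted p = 0.956), and the receptor *Il18r1* had 2.27 ± 2.48 and 4.27 ± 2.54 CPM (adjusted p = 0.745).

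Among 18 tested genes of inflammasomes and of shedding or processing proteases, 11 had a higher fitted level in pMCAO on group alone and none was called in either group fit. *Casp1*, the protease that activates IL-18, had the smallest p of this list on group alone, and *Nlrc4* the smallest with blocks. It had a median of 33.3 CPM in sham (22.7 to 50.6) and of 59.7 in pMCAO (48.1 to 75.4). Only the top of the sham range and the bottom of the pMCAO range overlapped. The log2 fold change was 0.80 ± 0.21 (adjusted p = 0.308) and 0.74 ± 0.18 with blocks (adjusted p = 0.0887), with block differences of 0.79, 0.82 and 0.43. *Nlrc4*, an inflammasome scaffold that responds to bacterial flagellin and secretion proteins through NAIP sensors, had the opposite direction. Its level was 226 ± 76.0 CPM in sham and 137 ± 43.8 in pMCAO (log2 fold change −0.70 ± 0.25, adjusted p = 0.491, and −0.62 ± 0.14 with blocks, adjusted p = 0.0557), with differences of −0.44, −0.86 and −0.45 within the blocks. *Nlrc4* was also higher in early than in later libraries by a log2 difference of 0.81 (adjusted p = 0.00304). The sensors *Naip5* and *Naip6*, named for their high CPM, which are not scaled to length, had 527 ± 159 and 818 ± 237 CPM in sham and 440 ± 87.1 and 876 ± 201 in pMCAO (adjusted p = 0.785 and 0.934). As close paralogues they may share reads, so their individual levels are uncertain. The protease *Bace1* had 17.8 ± 4.94 and 23.5 ± 4.70 CPM (adjusted p = 0.647).

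**Figure D4:**
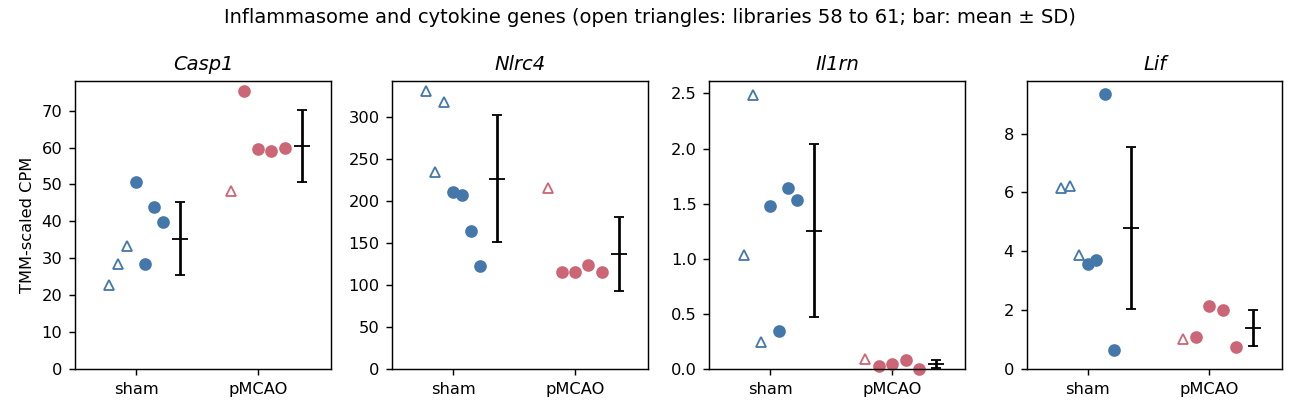
TMM-scaled CPM by sample (vertical axes, from 0) for *Casp1*, *Nlrc4*, *Il1rn* and *Lif*, with sham in blue, pMCAO in red, open triangles for libraries 58 to 61 and bars for the mean ± SD. *Casp1* sits at 48.1 to 75.4 in pMCAO against 22.7 to 50.6 in sham, and every *Il1rn* value in pMCAO is at or under 0.0854.

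Of the other cytokine genes, 9 were tested and *Lif* was the only one called, in the fit with blocks alone. *Lif*, a cytokine of the IL-6 family, fell in pMCAO from 4.79 ± 2.75 to 1.40 ± 0.62 CPM (log2 fold change −2.16 ± 0.45, adjusted p = 0.0465 with blocks), whereas on group alone the log2 fold change was −1.72 ± 0.64 (adjusted p = 0.504). Its sham samples ranged from 0.656 to 9.35 and its pMCAO samples from 0.754 to 2.12 CPM, so the groups overlapped. The call of *Lif* with blocks held by DESeq2 (adjusted p = 0.00465) and was lost by edgeR (adjusted p = 0.139) and when any 1 of 10 of the 12 samples was left out (sham replicates 1 to 6 and pMCAO replicates 1, 2, 4 and 5, at adjusted p of 0.0510 to 0.314 and a log2 fold change of −1.54 without sham replicate 6). *Il1rn*, which encodes the secreted antagonist of the IL-1 receptor, was at 0.241 to 2.49 CPM in sham and at 0 to 0.0854 in pMCAO, without overlap. These levels rest on 129 counts over all sham and 5 over all pMCAO samples, a ratio of 0.0282 after scaling to library size (95% interval 0.00901 to 0.0676, exact, covering counting error only). The adjusted p of limma-voom for *Il1rn* was 0.140 on group alone and 0.0599 with blocks, whereas DESeq2 gave an adjusted p of 0.000312 and 0.00425, and leaving out sham replicate 5 gave 0.0412 with blocks. The paper lists *Il1rn* among its differentially expressed genes, lower after stroke. The paper's limma-voom fit was corrected for the day of tissue collection, which the labels do not give. That fit also held 6 pMCAO samples, whereas 5 were available here. *Il7*, a growth factor of lymphocytes, had 0.703 ± 0.733 CPM in sham and 3.13 ± 2.76 in pMCAO (adjusted p = 0.619). The stem cell factor gene *Kitl* (7.45 ± 5.68 and 7.12 ± 2.87 CPM) and the alarmin gene *Il33* (5.22 ± 3.00 and 6.92 ± 3.98 CPM) were named for their CPM over all samples. Of the 33 listed cytokine genes 19 were not in the table.

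*Tnfsf10* (ENSMUSG00000039304, chr3:27317028-27342427, plus strand, 6 merged exons), the death ligand TRAIL, had a higher mean log2 level in pMCAO within each block but did not pass the adjusted test. Sham samples ranged from 10.1 over a median of 13.2 to 25.3 CPM, and pMCAO samples had 12.2, 25.5, 24.8, 43.0 and 25.3. The 4 later pMCAO samples lay at or above 24.8, a level that among sham samples only replicate 4 reached. Means were 15.1 ± 5.22 and 26.2 ± 10.95 CPM, a fitted difference of 1.63-fold (log2 0.71 ± 0.28, unadjusted p = 0.0212, adjusted p = 0.513) and of 1.58-fold with blocks (log2 0.66 ± 0.23, unadjusted p = 0.0104, adjusted p = 0.226). Within the blocks the differences of the means were 0.13, 0.46 and 1.04 on the log2 scale. Samples overlapped in the blocks 58 to 61 and 62 to 65. There pMCAO replicates 1 and 3 (12.2 and 24.8 CPM) lay under sham replicates 1 and 4 (12.6 and 25.3 CPM), respectively. The mouse death receptor of TRAIL, *Tnfrsf10b*, picked for its role after its values were seen, had 3.07 ± 0.93 CPM in sham and 3.95 ± 1.37 in pMCAO (adjusted p = 0.915). *Tnfrsf1a*, the main receptor of TNF, had 80.3 ± 20.2 and 66.1 ± 27.8 CPM (adjusted p = 0.733).

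No other ligand of the TNF superfamily was called among 7 tested, of which 3 had a higher fitted level in pMCAO on group alone. *Tnfsf12* had 3.73 ± 2.12 CPM in sham and 2.00 ± 0.77 in pMCAO (adjusted p = 0.602), and *Tnfsf13*, a survival factor of plasma cells, had 3.60 ± 1.83 and 2.74 ± 1.97 (adjusted p = 0.707). Exons of both overlap the readthrough gene *Tnfsfm13* on the same strand, so their counts are uncertain. *Fasl*, the death ligand of cytotoxic lymphocytes, had 2.76 ± 3.201 and 2.32 ± 1.19 CPM. Its mean was lower in pMCAO, whereas its fitted log2 fold change was 0.92 ± 0.70 (adjusted p = 0.718) and is among those counted as higher. By edgeR and DESeq2 the value was −0.24 and −0.27, so *Fasl* had no settled direction. *Tnfsf13b*, the B cell survival factor BAFF, had 9.94 ± 5.28 and 5.78 ± 4.71 CPM (adjusted p = 0.789), and *Tnfsf15* had 0.947 ± 0.946 and 0.936 ± 0.902.

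*Ccl25* (ENSMUSG00000023235, chr8:4325210-4360020, plus strand, 11 merged exons), the ligand of the gut-homing receptor CCR9, had a higher mean in pMCAO within each block, by 0.81, 0.09 and 0.19 on the log2 scale, and was not called. Sham samples ranged from 42.7 over a median of 82.7 to 130 CPM. The pMCAO samples had 78.0, 87.5, 111, 133 and 167. The 3 lowest of all samples were the early sham libraries, at 43.5, 46.9 and 42.7 CPM, and the early pMCAO library was the next lowest. The log2 fold change was 0.57 ± 0.31 (adjusted p = 0.628) and 0.30 ± 0.16 with blocks (adjusted p = 0.448). Without the first block it was 0.21 on group alone (adjusted p = 0.850). Exons of *Ccl25* overlap *Elavl1* on the opposite strand, and the strand setting of the counting is not given in the sources used here. *Elavl1*, picked for that overlap, had 19.2 ± 4.03 and 20.3 ± 2.40 CPM (adjusted p = 0.886). *Ccr9*, picked for its role, had 3.97 ± 2.98 and 3.83 ± 1.68 CPM (fitted log2 fold change 0.40 ± 0.63, adjusted p = 0.877).

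RefSeq gives *Ccl25* a pair of starts, and the 250 bases before the second (GRCm38.p6, chr8:4349338-4349587, plus strand, 5′ to 3′) are shown because they hold the CDX motif TTTATG on the opposite strand, in capitals as CATAAA; CDX factors are homeobox regulators of intestinal genes.
Ccl25 promoter, second start: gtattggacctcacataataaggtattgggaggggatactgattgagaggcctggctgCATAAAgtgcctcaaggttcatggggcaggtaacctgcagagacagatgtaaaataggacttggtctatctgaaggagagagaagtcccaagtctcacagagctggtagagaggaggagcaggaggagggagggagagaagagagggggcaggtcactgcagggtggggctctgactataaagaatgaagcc
The motif begins 192 bases before the start, and 10.8% of all RefSeq promoters of this length hold it. *Cdx1* and *Cdx2*, picked for the motif, had 16.98 ± 9.997 and 34.8 ± 10.47 CPM in sham and 26.03 ± 4.94 and 44.5 ± 6.02 in pMCAO (log2 fold change 0.57 ± 0.33 and 0.34 ± 0.20, adjusted p = 0.645 for each).

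*Ccl28* (ENSMUSG00000074715, chr13:119623819-119654359, plus strand, 4 merged exons), a mucosal chemokine for IgA-secreting plasma cells, had the largest fitted fold change of the 8 and the fewest counts. The sham samples ranged from 0 over a median of 1.68 to 6.63 CPM, and the pMCAO samples had 3.33, 9.51, 7.40, 5.20 and 5.13 CPM. The 3 early sham libraries held 1, 0 and 2 counts, each under the level of 3 counts that limits detection, and the early pMCAO library held 39. Scaled to library size the early pMCAO library was 23.9 times the 3 early sham libraries together (95% interval 7.60 to 121, exact, counting error only, 39 against 3 counts). Among later libraries the sham mean was 4.36 ± 2.08 CPM (n = 4) and the pMCAO mean 6.81 ± 2.09 (n = 4), and these overlapped. The fitted log2 fold change was 2.01 ± 0.74 (unadjusted p = 0.0151, adjusted p = 0.504) and 1.32 ± 0.49 with blocks (unadjusted p = 0.0153, adjusted p = 0.264). It was 0.92 on group alone without the first block (adjusted p = 0.654) and 1.21 by edgeR, with neither passing the test. The direction was the same in both later blocks, with differences of 1.49 and 0.34. The log2 ratio of *Ccl25* to *Ccl28* was 6.06 ± 1.92 in sham and 4.26 ± 0.72 in pMCAO, lower by 1.80 (exact permutation p = 0.0833, adjusted p = 0.263; within blocks p = 0.0278, adjusted p = 0.111, with 0.0139 the smallest p that 72 arrangements allow). The CCL28 receptors *Ccr10* and *Ccr3* were not in the table.

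*Cxcl16* (ENSMUSG00000018920, chr11:70453983-70459984, minus strand, 6 merged exons), which binds CXCR6 on T cells, had overlapping groups. Sham samples ranged from 16.1 over a median of 29.7 to 38.5 CPM, and pMCAO samples had 54.3, 26.5, 25.02, 34.6 and 35.2. Only the early pMCAO library exceeded the sham range. The log2 fold change was 0.33 ± 0.25 (adjusted p = 0.728) and 0.51 ± 0.21 with blocks (unadjusted p = 0.0300, adjusted p = 0.331), with differences of 0.71, −0.02 and 1.11 within the blocks. Without sham replicate 6 the value with blocks was 0.21. Exons of *Cxcl16* overlap *Zmynd15* on the opposite strand, a gene picked for that overlap that had 1.09 ± 1.04 and 2.04 ± 0.70 CPM. *Cxcr6*, picked for its role, had 2.93 ± 4.38 and 1.78 ± 1.46 CPM, whereas its fitted log2 fold change was 0.22 ± 0.76 (adjusted p = 0.953).

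*Cx3cl1* (ENSMUSG00000031778, chr8:94772009-94782427, plus strand, 6 merged exons), the membrane-bound chemokine fractalkine, showed the steadiest difference of the 8 genes. The sham samples lay between 19.9 and 26.2 CPM with a median of 22.4. The pMCAO samples had 37.0, 39.0, 23.9, 34.7 and 29.5 CPM. All pMCAO samples but replicate 3 exceeded every sham sample. Means were 22.6 ± 2.12 and 32.8 ± 6.10 CPM, a fitted difference of 1.42-fold (log2 0.51 ± 0.18, 95% interval 0.13 to 0.89, unadjusted p = 0.0119, adjusted p = 0.471) and of 1.44-fold with blocks (log2 0.53 ± 0.19, unadjusted p = 0.0144, adjusted p = 0.261). Within blocks the differences were 0.72, 0.42 and 0.50 on the log2 scale. Leaving out each sample in turn gave log2 fold changes of 0.40 to 0.66 with blocks, and none of these fits passed the adjusted threshold. The interval of the difference stayed below 1 on the log2 scale in both fits, the size that the study's threshold requires. The log2 ratio of *Cxcl16* to *Cx3cl1* was 0.27 ± 0.50 in sham and 0.06 ± 0.41 in pMCAO (exact permutation p = 0.463). *Cx3cr1*, the fractalkine receptor, was not in the table, and the sheddases *Adam10* and *Adam17*, picked for their role, had 41.9 ± 9.20 and 42.3 ± 5.05 CPM and 19.4 ± 5.97 and 21.7 ± 4.54 CPM (adjusted p = 0.973 and 0.893).

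Other chemokines were followed in 33 listed genes, of which 12 were in the table and 10 were tested. All 10 had a higher fitted level in pMCAO on group alone and 9 with blocks, *Cxcl2* being the exception, against 55.22% and 51.26% of all tested genes. None was called, and the median log2 fold change was 0.48 and 0.58. Fitted and mean levels did not always share a direction. Mean CPM was lower in pMCAO for *Cxcl2* (1.88 in sham and 0.719 in pMCAO, fitted log2 0.28 ± 1.13 on group alone) and *Xcl1* (1.73 and 0.863, fitted log2 0.23 ± 1.00). *Ccl5*, made by cytotoxic lymphocytes, had 41.5 ± 36.1 CPM in sham and 54.1 ± 48.1 in pMCAO (adjusted p = 0.877, with blocks 0.311). *Ccl6*, a chemokine for myeloid cells, had 21.3 ± 18.1 and 28.02 ± 15.6 CPM (adjusted p = 0.914). *Ccl4*, *Ccl20* and *Ccl27a* stayed under 5 CPM in every sample, at means of 1.01, 0.353 and 0.815 CPM in sham and 1.42, 0.738 and 1.46 in pMCAO (adjusted p = 0.649, 0.777 and 0.783). Summed T cell and intraepithelial lymphocyte markers were 229 ± 227 CPM in sham and 229 ± 171 in pMCAO. Sham replicate 7 had 709.7 CPM, and the remaining sham samples 148.4 ± 87.8 (SD, n = 6). With blocks, 11 of 12 tested markers of this list had a higher fitted level in pMCAO, and none was called. The part of these cells in the *Ccl5* values was not tested.

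Of 37 tested receptors and transcription factors that act on these genes, 15 had a higher fitted level in pMCAO on group alone and none was called in either group fit. *Tnfaip3*, the NF-κB inhibitor A20, had 66.04 ± 25.8 CPM in sham and 37.9 ± 6.34 in pMCAO (log2 fold change −0.67 ± 0.25, adjusted p = 0.508). *Tnfaip3* was also higher in early than in later libraries, by 0.72 on the log2 scale (adjusted p = 0.0162). *Ifngr2*, a chain of the interferon-γ receptor, had 68.7 ± 11.7 and 91.2 ± 12.5 CPM (log2 0.43 ± 0.17, adjusted p = 0.526), and *Il17ra*, the IL-17 receptor, had 19.8 ± 5.22 and 14.3 ± 2.21 (log2 −0.50 ± 0.21, adjusted p = 0.552). Named for their CPM over all samples, *Hnf4a*, a nuclear receptor of enterocytes, had 462 ± 126 and 482 ± 198 CPM, and *Stat2* had 136 ± 54.6 and 99.7 ± 14.6 CPM.

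The split between early and later libraries passed the test for more of the 8 genes than the surgery did. In a model with group, 4 of 8 genes passed the threshold between early and later libraries, against 11.7% of all tested genes. *Pigr* (log2 −1.14 ± 0.29, adjusted p = 0.0117), *Ccl25* (−1.02 ± 0.22, adjusted p = 0.00472) and *Ccl28* (−2.87 ± 0.95, adjusted p = 0.0423) were lower in early libraries, and *Il15* (1.02 ± 0.20, adjusted p = 0.00260) was higher. The call of *Pigr* was lost without pMCAO replicate 1, the only early pMCAO library (log2 −0.72, adjusted p = 0.177), and with this library left out the early value of *Ccl28* was −4.34 (adjusted p = 0.0616). *Ccl28* also lost its call without sham replicates 1, 2 or 3 (adjusted p 0.162, 0.118 and 0.0971) and without 6 of the later samples in turn, at adjusted p between 0.0504 and 0.0611. *Il15* dropped to 0.88 to 0.99 on the log2 scale without sham replicates 3, 4 or 7 or pMCAO replicates 1 or 2, and *Ccl25* lost its call without sham replicates 1, 3, 6 or 7 or pMCAO replicate 5, its difference then being −0.93 at the smallest. *Cxcl16* was higher in early libraries by 0.72 (adjusted p = 0.0342), less than the threshold, and *Il18* (−0.73, adjusted p = 0.274), *Tnfsf10* (−0.80, adjusted p = 0.0682) and *Cx3cl1* (0.13, adjusted p = 0.696) did not pass. *Il15* had 133 to 158 CPM in early and 51.8 to 122 CPM in later libraries. *Ccl25* had 42.7 to 78.0 and 82.7 to 167, *Pigr* 166 to 274 and 280 to 1123, and *Tnfsf10* 10.1 to 12.6 and 13.2 to 43.0. These 4 genes did not overlap between early and later libraries, 3 being lower in every early sample, against 9.4% of all tested genes, and 1 higher, against 5.46%.

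Marker levels moved with the same split. Summed goblet cell markers were 4133 to 8117 CPM in early and 20588 to 55208 in later libraries, enteroendocrine markers 199 to 402 and 1654 to 3449, and tuft cell markers 16.6 to 44.9 and 166 to 760. Enterocyte markers were 19279 to 52184 in early and 14251 to 24572 in later libraries. Their part in the values of *Pigr*, *Ccl25*, *Ccl28* and *Il15* was not tested.

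**Figure D5:**
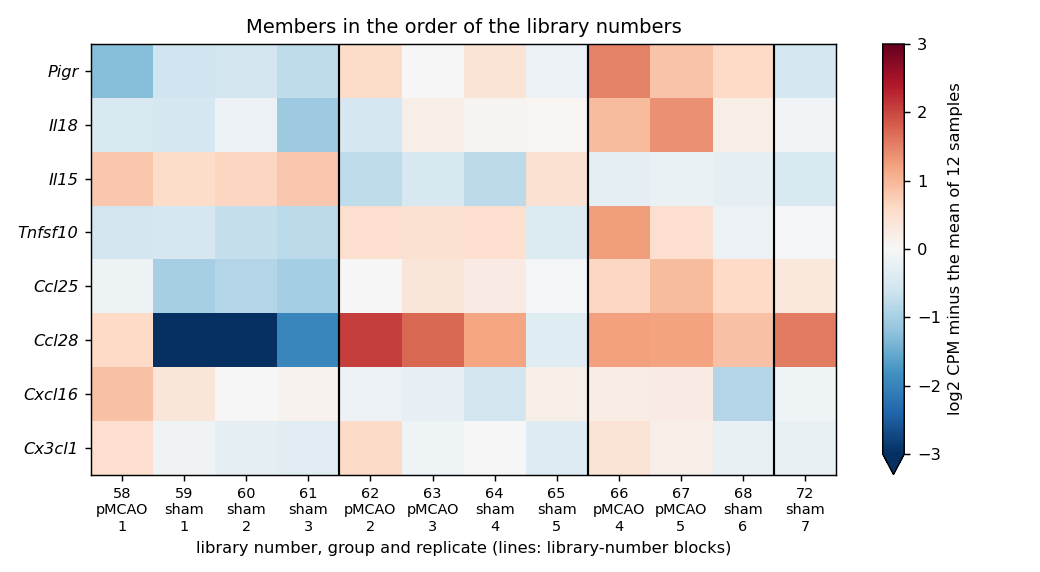
Log2 CPM of each gene minus its mean over the 12 samples (colour, from −3 in blue to 3 in red; lower values take the darkest blue) with samples in the order of their library numbers and lines between the 4 library-number blocks. The 4 leftmost samples, 58 to 61, are low for *Pigr*, *Tnfsf10* and *Ccl25* and high for *Il15*, and *Cx3cl1* shows little change along the order.

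Library-number blocks accounted for 83.9% of the variance of log2 CPM over the 12 samples for *Pigr*, 85.2% for *Ccl25*, 73.9% for *Il15*, 70.0% for *Il18*, 64.6% for *Ccl28* and 61.9% for *Tnfsf10*. *Cxcl16* had 30.8% and *Cx3cl1* 8.48%. The group taken by itself accounted for 64.7% for *Cx3cl1*, 36.2% for *Tnfsf10* and 30.3% for *Ccl28*, and for 7.01% to 23.1% for the other 5. *Cx3cl1* was therefore the only gene of the 8 for which the group share exceeded the block share. The shares overlap because the groups are unevenly spread over the blocks. Blocks also have more levels than the group, with a lone library in the last, which favours the block share for every gene. Within each of the 3 blocks that hold both groups, 4 of 8 genes (*Tnfsf10*, *Ccl25*, *Ccl28* and *Cx3cl1*) had a higher mean log2 CPM in pMCAO, against 16.9% of all tested genes. A lower mean in each block was found for 0 of 8 genes, against 13.4% of all tested genes.

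Similarity between samples is given as a description only, since the points share libraries, depth and blocks. Over the 12 samples Pearson's r of log2 CPM was 0.86 between *Pigr* and *Tnfsf10* and 0.85 between *Ccl25* and *Ccl28*, and over 11 samples centred on their block means it was 0.69 and 0.73. *Il15* ran opposite to *Pigr* (−0.69 and −0.56) and *Tnfsf10* (−0.80 and −0.59). *Pigr* and *Ccl25* had r = 0.71 over 12 samples and −0.44 after centring. Among 6149 other genes with a mean of at least 10 CPM, those closest in pattern after centring were *Tbc1d24* and *Tap1*, a peptide transporter of antigen presentation, for *Pigr* (r = 0.94 and 0.91). For *Il15* they were *Tuft1* and the fatty acid transporter gene *Slc27a4* (0.97 and 0.95), for *Il18* *Zcchc14* and *Cyth2* (0.91 for each), and for *Tnfsf10* the glutathione transferase gene *Gsta4* and *Ankrd54* (0.90 and 0.89). For *Ccl25* they were the vitamin C transporter gene *Slc23a1* and the respiratory chain gene *Uqcr10* (0.95 and 0.94), and for *Ccl28* the citric acid cycle gene *Suclg1* and *Cdc123* (0.95 for each). For *Cxcl16* they were the clusterin gene *Clu* and *Tnrc6a* (0.95 and 0.93), and for *Cx3cl1* the microvillus actin-bundling gene *Pls1* and *Galnt1* (0.97 and 0.92).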

How the data were processed

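RNA was measured in EpCAM+ small-intestinal epithelial cells from 7 sham and 5 pMCAO mice. The authors removed ribosomal RNA by cleavage and sequenced both read ends; STAR, featureCounts and GRCm38 are named in the submitters' processing notes; the strand setting and annotation version are not given in the sources used here. The deposited count columns hold raw whole-number counts for 15855 genes, and the deposited CPM columns hold the same counts scaled to each sample's total (true of 12 of 12 samples). The remaining deposited columns hold the authors' log2 fold change, average expression, p-value and FDR and were not used. Every sample column was matched by name to a sample, with 0 left over.

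Counts were tested with the voom method of limma 3.58.1, run in R 4.3.3 with edgeR 4.0.16, after TMM scaling and edgeR's filter on low counts by group (minimum count 10), which removed 1393 genes. Called genes met the study's criteria: a p no higher than 0.05 after Benjamini-Hochberg adjustment, with a log2 fold change of 1 or more in size. The study corrected for the day of tissue collection, which the labels do not give; hence group alone was fitted, and beside it group with 4 library-number blocks (58–61, 62–65, 66–68 and 72), in which the lone library 72 (sham replicate 7) carries no information on the group, and early (58–61) against later libraries with group. CPM in the text are TMM-scaled. Log2 ratios (0.5 added to each count) and summed marker levels were compared by two-sided exact permutation tests (792 arrangements, smallest p 0.00126; 72 within blocks). Exon lengths and positions came from GENCODE M21 (15776 of 15855 genes matched); promoters came from RefSeq (GRCm38.p6).

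Named were the 8 genes; from each of 6 pathway lists up to 3 genes with the smallest p and 2 others with the highest level, and any called; the 2 genes closest in block-centred pattern; and marker genes at issue. The genes, lists and blocks were chosen with earlier results of these data known. Alternatives were edgeR, DESeq2 1.42.0, limma-trend, other scaling (RLE), no filter, no mitochondrial rRNA, other covariates and leaving out samples. Scripts were tested on simulated data. Total counts of 7418730 to 31925579 put 3 counts at 0.0692 to 0.724 CPM. Between samples of a group, counts differed far beyond sampling noise (chi-square 17.7 to 424.5 for each degree of freedom, 31 pairs), so none was the same library deposited again; that a pair came from 1 animal was not tested. Each sample is labelled a biological replicate.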

Additional observations from a re-analysis of the deposited data

Results flagged for a closer look

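Groups of 4 to 10 samples were checked for a single sample far from the others by Dixon's criterion, for the members, ratios and marker lists (50 groups of values). Chance alone sets apart about 1 in 20 such groups. For none of the 8 genes was a sample set apart in this way, and 8 marker sums were. In sham replicate 6 the summed tuft cell markers were 759.6 CPM, whereas the remaining sham samples had 116.4 ± 95.2 (SD, n = 6). Sham replicate 7, the library numbered 72, stood apart in stem and dividing crypt cell markers (184.4 against 52.4 ± 21.8 CPM), in T cell and intraepithelial lymphocyte markers (709.7 against 148.4 ± 87.8 CPM) and in the only stromal marker present, *Pecam1* (5.245 against 1.08 ± 0.82 CPM). In pMCAO replicate 1, the early pMCAO library, epithelial markers summed to 12760 CPM against 5798 ± 172 (SD, n = 4) and enterocyte markers to 52180 against 20260 ± 2992. This library also had the lowest *Pigr* and the highest *Il15* and *Cxcl16* of all samples. In pMCAO replicate 2 the myeloid markers summed to 45.32 CPM against 23.8 ± 2.45, and the ileal markers to 164.6 against 51.0 ± 17.3.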

How the results depend on the processing

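None of the 8 genes was called between pMCAO and sham in any alternative to either group fit, which were edgeR, DESeq2, other size factors, no filter, no mitochondrial rRNA genes, no early libraries and each sample left out, plus, for group alone, limma-trend, the early or later covariate and the replicate block. On group alone all 8 kept their direction throughout. With blocks, *Pigr* turned to −0.16, −0.03 and −0.05 without sham replicate 6, pMCAO replicate 2 or pMCAO replicate 4, *Il18* to −0.16 without sham replicate 6, and *Il15* to 0.12 without sham replicate 5; with each sample left out their values ran from −0.16 to 0.33, from −0.16 to 0.61 and from −0.29 to 0.12, and the cause was not tested. The count of called genes over the whole table depended far more on the setting. On group alone it was 0, against 64 by DESeq2, 16 with the early or later covariate, 1 by limma-trend and 0 to 17 with each sample left out (17 without pMCAO replicate 3, 8 without pMCAO replicate 1, 5 without sham replicate 7). With blocks it was 47, against 20 by edgeR, 114 by DESeq2, 0 without the early libraries and 4 to 86 with each sample left out (4 without sham replicate 6, 6 without pMCAO replicate 1, 86 without pMCAO replicate 3). Between early and later libraries it was 1687, against 2943 by DESeq2 and 703 (without pMCAO replicate 1) to 2205 (without sham replicate 5) with each sample left out; of the 8 genes 4 were called there, and 1 to 4 with each sample left out. *Il1rn* passed by DESeq2 in both fits (−5.01 and −4.79), on group alone with a replicate block (−4.02) and, with blocks, without sham replicate 5 (−4.57), and *Lif* lost its call with blocks by edgeR, without the filter (adjusted p = 0.0542), without the early libraries and without 10 of the 12 samples in turn. Neither *Casp1* nor *Nlrc4* was called in any alternative, nor was any of the remaining 26 genes named from the lists, for which 32 of 543 values on group alone and 13 of 465 with blocks changed sign. Between early and later libraries, *Il15* fell just under a log2 difference of 1 by edgeR (0.99) and DESeq2 (0.99). Sham and pMCAO share replicate numbers in the titles. With a replicate block 243 genes were called, but same-numbered samples shared only a number: their deviations correlated at 0.40, −0.24, −0.16, 0.16 and 0.08, and 1 of 5 correlated best with its own number. Other size factors moved the median log2 fold change of all genes from 0.06 to 0.05. Few counts limit *Ccl28* and *Il1rn*, which had 2 or fewer counts in the early sham and in the pMCAO libraries, respectively. Mean total counts were 13442588 in sham and 22183984 in pMCAO samples, and the part of depth in these low counts was not tested.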
